A study of Mus musculus with 9 samples.

Results

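The kappa and lambda light chain segments were read from RNA-seq libraries of splenic B-lineage cells of B6.Blimp1GFP/+ mice, in which GFP reports the plasma cell regulator Blimp1. Every row whose symbol begins with Igkv, Igkj, Igkc, Iglv, Iglj or Iglc was taken, which gave 113 of the 30317 genes in the table. These were 103 Igkv, 5 Igkj, Igkc, 3 Iglv and Iglc2, and the table had no Iglj row. The mice were 12 weeks old and all had received 50 µg NP-LPS, the hapten nitrophenyl (NP) on bacterial lipopolysaccharide, by intraperitoneal injection 4 days before, so the naive group too came from immunized animals. Naive B cells (naive cells below) were sorted as IgD-high and B220-positive without NP binding. NP-specific B cells (NP-binding cells below) carried B220, bound NP and lacked IgD, GFP and CD138. Plasma cells (PCs) bound NP, lacked IgD and carried GFP and CD138, with or without B220. Each group had 3 libraries, from 3 mice in all, and whether libraries with the same number came from the same mouse is not stated. Values are TPM (transcripts per 1000000), which correct for transcript length. Levels of different segments are compared within the limits on shared sequence given below.

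An antibody light chain is made of a variable and a joining segment, joined in the DNA of each B cell, and a constant segment added by splicing. The kappa locus lies on mouse chromosome 6 and holds many Igkv segments before 5 Igkj segments and a single constant gene, Igkc. The lambda locus on chromosome 16 holds 3 Iglv segments, each next to few joining and constant segments. A B cell as a rule makes 1 light chain, and most mouse B cells make kappa. Antibodies to NP in mice of the C57BL/6 background are known for their frequent use of the Iglv1 lambda chain. NP binding was a criterion of the sort of both NP-binding groups, and its part in their light chain shares cannot be told apart from that of activation.

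The lambda variable exons are shown first because the results turn on Iglv1 and on how well its reads can be told from those of Iglv2. Sequences are coding bases of the reference strain, 5′ to 3′ on the sense strand, from the GENCODE vM21 annotation of GRCm38. Iglv1 lies at chr16:19085017-19085316, Iglv2 at chr16:19260401-19260700 and Iglv3 at chr16:19241207-19241506, all on the minus strand. Capitals in Iglv2 mark the 8 of 300 bases that differ from Iglv1.
Iglv1: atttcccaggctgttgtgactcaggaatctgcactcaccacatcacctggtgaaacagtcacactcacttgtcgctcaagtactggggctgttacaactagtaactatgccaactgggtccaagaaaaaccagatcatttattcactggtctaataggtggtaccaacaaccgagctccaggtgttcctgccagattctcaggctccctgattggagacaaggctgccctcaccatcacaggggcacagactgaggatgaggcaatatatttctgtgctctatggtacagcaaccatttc
Iglv2: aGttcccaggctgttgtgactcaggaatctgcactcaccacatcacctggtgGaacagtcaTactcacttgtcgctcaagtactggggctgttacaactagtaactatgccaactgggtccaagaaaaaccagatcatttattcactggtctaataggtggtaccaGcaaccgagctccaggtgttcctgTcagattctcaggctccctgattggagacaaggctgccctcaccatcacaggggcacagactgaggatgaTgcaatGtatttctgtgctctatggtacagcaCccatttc
Iglv3: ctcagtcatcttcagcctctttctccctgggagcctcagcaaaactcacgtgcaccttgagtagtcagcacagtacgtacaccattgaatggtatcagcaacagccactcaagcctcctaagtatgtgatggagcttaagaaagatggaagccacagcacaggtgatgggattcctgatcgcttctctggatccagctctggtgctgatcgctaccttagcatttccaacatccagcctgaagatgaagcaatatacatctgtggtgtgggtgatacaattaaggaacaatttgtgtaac
Iglv1 and Iglv2 were identical at 97.3% of these bases. Of the 361 words of 31 bases in the Iglv1 transcript, 63.2% occur in no other annotated gene, and 133 occur in Iglv2. All 31-base words of Iglv3 were its own. The division of reads between Iglv1 and Iglv2 thus rests on the part of the sequence that differs.

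The lambda constant exons are shown because Iglc2 was the sole lambda constant row, and Iglc1 and Iglc3 were not analysed here. Both stretches lie on the minus strand, Iglc2 at chr16:19198554-19198853 and Iglc3 at chr16:19065382-19065681. Capitals in Iglc3 mark bases that differ from Iglc2 or lie beyond it.
Iglc2: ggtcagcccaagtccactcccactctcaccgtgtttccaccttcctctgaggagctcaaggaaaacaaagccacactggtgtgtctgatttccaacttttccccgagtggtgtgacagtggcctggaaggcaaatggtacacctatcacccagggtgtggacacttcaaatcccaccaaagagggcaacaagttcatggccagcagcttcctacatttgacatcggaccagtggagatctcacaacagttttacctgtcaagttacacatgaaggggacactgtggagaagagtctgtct
Iglc3: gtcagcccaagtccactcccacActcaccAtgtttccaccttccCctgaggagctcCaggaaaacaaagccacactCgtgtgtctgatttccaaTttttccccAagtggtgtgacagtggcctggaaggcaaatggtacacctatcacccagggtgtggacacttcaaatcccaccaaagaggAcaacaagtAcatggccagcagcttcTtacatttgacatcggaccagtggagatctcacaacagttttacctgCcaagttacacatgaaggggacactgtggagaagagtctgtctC
They were identical at 288 of 301 aligned positions. Iglc2 shared 106 of its 581 words of 31 bases with Iglc3 and 0 with Iglc1, the constant segment next to the joining segment that Iglv1 commonly uses.

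The kappa variable exons below are those that led the Igkv segments in naive cells (Igkv6-15), in PC replicate 2 (Igkv1-135) and in PC replicate 3 (Igkv4-92), and a related pair that was far apart in PC replicate 2 alone of the PC libraries. They lie at chr6:70406469-70406766 (Igkv6-15, minus strand), chr6:67610209-67610508 (Igkv1-135, plus strand), chr6:68755038-68755337 (Igkv4-92, minus strand), chr6:69764523-69764820 (Igkv12-46, minus strand) and chr6:69750854-69751139 (Igkv12-47, minus strand). Capitals in Igkv12-47 mark bases that differ from Igkv12-46, and Igkv12-47 is annotated as a pseudogene.
Igkv6-15: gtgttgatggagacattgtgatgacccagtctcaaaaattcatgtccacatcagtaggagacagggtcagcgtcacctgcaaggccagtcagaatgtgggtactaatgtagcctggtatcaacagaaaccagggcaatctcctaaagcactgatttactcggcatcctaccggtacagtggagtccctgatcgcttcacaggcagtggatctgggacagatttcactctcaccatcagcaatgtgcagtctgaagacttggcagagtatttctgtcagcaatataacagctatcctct
Igkv1-135: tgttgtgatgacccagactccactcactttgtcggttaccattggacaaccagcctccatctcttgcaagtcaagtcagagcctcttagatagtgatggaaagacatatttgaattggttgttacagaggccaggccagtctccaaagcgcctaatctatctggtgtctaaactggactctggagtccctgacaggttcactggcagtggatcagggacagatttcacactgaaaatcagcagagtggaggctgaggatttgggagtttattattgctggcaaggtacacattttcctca
Igkv4-92: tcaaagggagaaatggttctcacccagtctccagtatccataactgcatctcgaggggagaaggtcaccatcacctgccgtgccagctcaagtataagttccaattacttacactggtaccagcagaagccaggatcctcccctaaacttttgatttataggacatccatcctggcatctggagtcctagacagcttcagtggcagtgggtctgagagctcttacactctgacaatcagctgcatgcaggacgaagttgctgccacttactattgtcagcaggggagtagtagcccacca
Igkv12-46: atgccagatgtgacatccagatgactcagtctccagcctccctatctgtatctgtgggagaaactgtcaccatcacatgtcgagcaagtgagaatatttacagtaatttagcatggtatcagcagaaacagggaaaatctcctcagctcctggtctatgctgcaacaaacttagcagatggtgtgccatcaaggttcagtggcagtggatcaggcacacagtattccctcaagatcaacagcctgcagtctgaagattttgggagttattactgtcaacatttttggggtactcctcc
Igkv12-47: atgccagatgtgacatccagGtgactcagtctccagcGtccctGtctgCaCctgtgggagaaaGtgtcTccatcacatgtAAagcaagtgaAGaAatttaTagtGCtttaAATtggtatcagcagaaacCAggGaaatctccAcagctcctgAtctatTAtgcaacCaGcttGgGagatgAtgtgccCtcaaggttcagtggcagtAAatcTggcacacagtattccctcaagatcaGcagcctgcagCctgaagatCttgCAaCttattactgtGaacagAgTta
Igkv12-46 and Igkv12-47 were identical at 243 of 298 aligned positions. Own 31-base words made up 99.1% in Igkv4-92, 92.9% in Igkv12-47, 64.0% in Igkv6-15, 51.6% in Igkv12-46 and 42.3% in Igkv1-135, which shared most with Igkv1-133. Over the 103 Igkv segments the median was 52.9% (13.0 to 100%), so levels of close relatives, such as Igkv1-110 and Igkv1-117, are uncertain.

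The libraries held 28958700 to 39341500 estimated reads. IgD transcripts (Ighd), which mark naive cells, stood at 2801 to 2904 TPM in naive cells, at 37.8 to 42.5 in NP-binding cells and at 0.346 to 1.26 in PCs, as the sort would have it. Summed T cell markers were at 0.741 to 6.73 TPM over all libraries and erythroid markers at 0.626 to 22.6. Summed macrophage markers were at 5.13 to 6.08 TPM in naive cells, 46.7 to 61.0 in NP-binding cells and 9.68 to 28.0 in PCs. In NP-binding cells Cd68 made up most of this (40.3 to 59.8 TPM), and Csf1r, Lyz2 and C1qa were at most 4.94 TPM. A list of 6 hepatocyte genes summed to 1385 TPM in PC replicate 3, led by Apoa2 (805 TPM), Apoa1 (239 TPM) and Alb (198 TPM), and to at most 7.89 in any other library. The part of this in the results was not tested, and the counts of light chain members and of the companion list called in PCs are given with and without that library. Of the 1000000 TPM of a library, 6.22 to 6.33% fell on genes outside the table in naive cells, 8.70 to 9.71% in NP-binding cells and 30.0 to 32.8% in PCs, and these were not analysed here.

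Iglv1 was the most abundant of all listed genes in every NP-binding cell and PC library. It stood at 1457, 1445 and 1358 TPM in the naive libraries, where it ranked 86 to 97 among all genes. It stood at 36262, 28769.7 and 27797 TPM in NP-binding cells and at 200547, 229745 and 206147 TPM in PCs. The groups did not overlap, and each step was far larger than the spread within a group. In limma, a linear model fitted across all genes on listed TPM, the log2 change of Iglv1 from naive to NP-binding cells was 4.48 ± 0.11 (SE, n = 3 per group, adjusted p = 2.03e-08). In PCs the log2 change was 3.19 ± 0.11 against NP-binding cells (limma adjusted p = 1.24e-08) and 7.67 ± 0.11 against naive cells (limma adjusted p = 1.88e-10). In these bulk libraries, more cells that use a segment and more of its RNA per cell cannot be told apart. Iglv1 alone held 29.3 to 32.8% of listed TPM in PCs but 6.12 to 7.19% of estimated reads, since TPM divides by length and the segment is short.

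**Figure D1:**
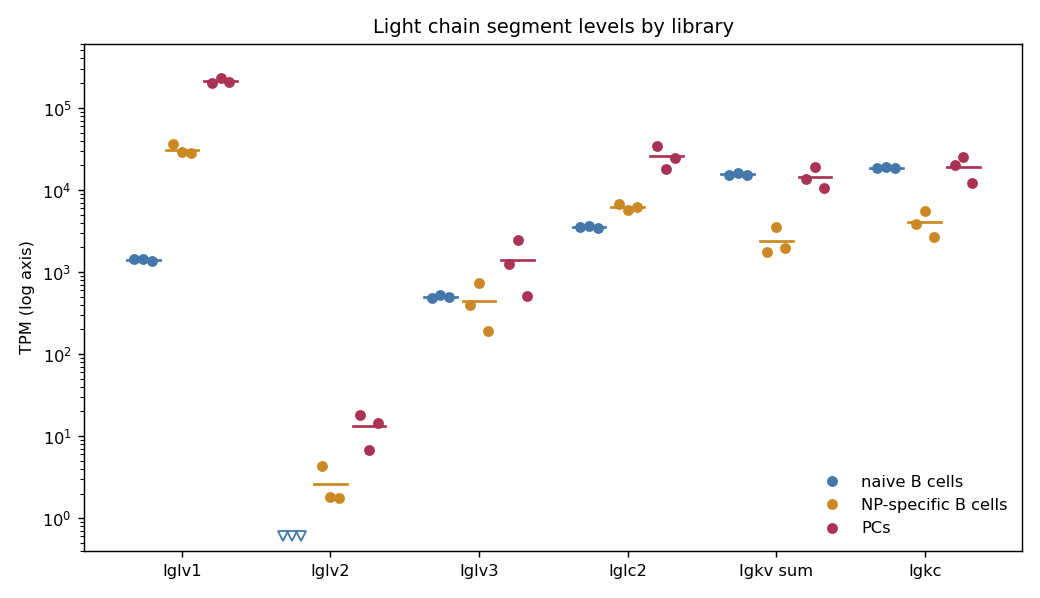
TPM of the lambda segments, the summed Igkv segments and Igkc in each library (points, log axis), with the group mean as a line and open triangles for a TPM of 0. Iglv1 rose from 1358 to 1457 TPM in naive cells to 200547 TPM or more in each PC library, whereas Igkc and the Igkv sum were lowest in NP-binding cells.

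Iglv2, the near copy of Iglv1, was listed at a TPM of 0 in all 3 naive libraries. It reached 4.29, 1.79 and 1.78 TPM in NP-binding cells and 18.3, 6.85 and 14.5 TPM in PCs. Against a floor of 3 estimated reads in each naive library, the mean was at least 2.46-fold higher in NP-binding cells and at least 12.4-fold higher in PCs. Iglv2 was called higher in both NP-binding groups than in naive cells, and in PCs over NP-binding cells (2.53 ± 0.42 on the log2 scale, limma adjusted p = 3.28e-04). It was far below Iglv1 in every library, and what part of it came from reads of Iglv1 was not tested.

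Iglv3 is the lambda variable segment that shares no 31-base word with any other gene. It stood at 487, 523 and 499 TPM in naive cells, at 397, 735 and 193 TPM in NP-binding cells and at 1237, 2446 and 515 TPM in PCs. The NP-binding cell libraries lay on both sides of the naive ones (log2 change -0.34 ± 0.56, limma adjusted p = 0.627). Iglv3 was higher in PCs than in naive cells by 1.66 ± 0.55 (limma adjusted p = 0.0175), a call that was lost without PC replicate 2 (log2 change 1.13). It was higher in PCs than in NP-binding cells by 2.00 ± 0.55 (limma adjusted p = 0.00745). The libraries overlapped in both comparisons, since PC replicate 3 (515 TPM) lay within the naive range and below NP-binding cell replicate 2 (735 TPM). The ratio of Iglv1 to Iglv3 went from 2.72 to 2.99 in naive libraries to 39.1 to 144 in NP-binding cells and 93.9 to 400.4 in PCs, so the lambda variable TPM of both NP-binding groups was nearly all Iglv1.

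Of the 2 constant segments, Igkc was called lower in NP-binding cells and Iglc2 was not called. Igkc (chromosome 6, 70726435 to 70726966) stood at 18448, 19035 and 18708 TPM in naive cells, 3894, 5461 and 2682 TPM in NP-binding cells and 20249, 25086 and 12280.2 TPM in PCs. It fell in NP-binding cells by 2.24 ± 0.28 on the log2 scale (limma adjusted p = 1.78e-04), with no overlap between libraries. It was higher in PCs than in NP-binding cells by 2.67 ± 0.28 (limma adjusted p = 1.07e-05). Between PCs and naive cells its libraries overlapped and the change of 0.43 ± 0.27 was not called (limma adjusted p = 0.169). That change is on TPM divided by the listed sum, which was lower in PCs. The mean as printed was 19205 TPM in PCs and 18730 TPM in naive cells. Relative to the summed TPM of genes outside the Ig genes, Igkc was higher in PCs than in naive cells by 1.65 ± 0.29 (limma adjusted p = 8.79e-04).

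Iglc2 (chromosome 16, 19198396 to 19200351) stood at 3578, 3667 and 3421 TPM in naive cells, 6819.6, 5699 and 6179.6 TPM in NP-binding cells and 34217.5, 18107 and 24819 TPM in PCs. All 3 NP-binding cell libraries lay above the naive ones, but the log2 change of 0.85 ± 0.20 was under the 2-fold limit for a call (limma adjusted p = 0.00601). Iglc2 rose in PCs over naive cells by 3.26 ± 0.20 (limma adjusted p = 3.05e-07) and over NP-binding cells by 2.41 ± 0.20 (limma adjusted p = 2.12e-06). The summed Iglv segments were at 0.537 to 0.543 times the TPM of Iglc2 in naive cells, at 4.53 to 5.38 times in NP-binding cells and at 5.90 to 12.8 times in PCs. The matching ratio of summed Igkv to Igkc was 0.823 to 0.842 in naive cells, 0.455 to 0.740 in NP-binding cells and 0.678 to 0.852 in PCs. Iglc1 is not in these ratios, so the first one sets the Iglv segments against Iglc2 alone and not against all lambda constant RNA.

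The lambda share of light chain TPM was 14.0, 13.8 and 13.4% in the naive libraries. It was 88.5, 79.7 and 88.0% in NP-binding cells and 87.4, 85.1 and 91.1% in PCs. Neither NP-binding group overlapped with naive cells (difference of means 71.6 and 74.1 percentage points, two-sided exact permutation p = 0.1 for each, the smallest that 3 against 3 libraries can give). PCs and NP-binding cells overlapped and differed by 2.46 percentage points (exact permutation p = 0.7). Over the variable segments alone the share was 10.8 to 11.2% in naive cells, 92.7% ± 3.03 (SD, n = 3) in NP-binding cells and 93.8% ± 1.34 in PCs. Over Iglc2 and Igkc, the constant segments in the table, it was 15.5 to 16.2% in naive libraries and 63.7, 51.1 and 69.7% in NP-binding cells. In PCs it was 62.8, 41.9 and 66.9%. Iglc1 and Iglc3 are not in this share or in that of all segments, so neither share counts all lambda constant RNA. The lowest constant share, in PC replicate 2, went with the highest Igkc and the lowest Iglc2 of the PC libraries. All 3 definitions placed every NP-binding library above every naive one, but the size of the share depended on which segments were counted. Over 21 comparisons of 7 light chain measures between groups, 0 exact permutation p-values were under 0.1, so none could pass an adjustment for their number.

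**Figure D2:**
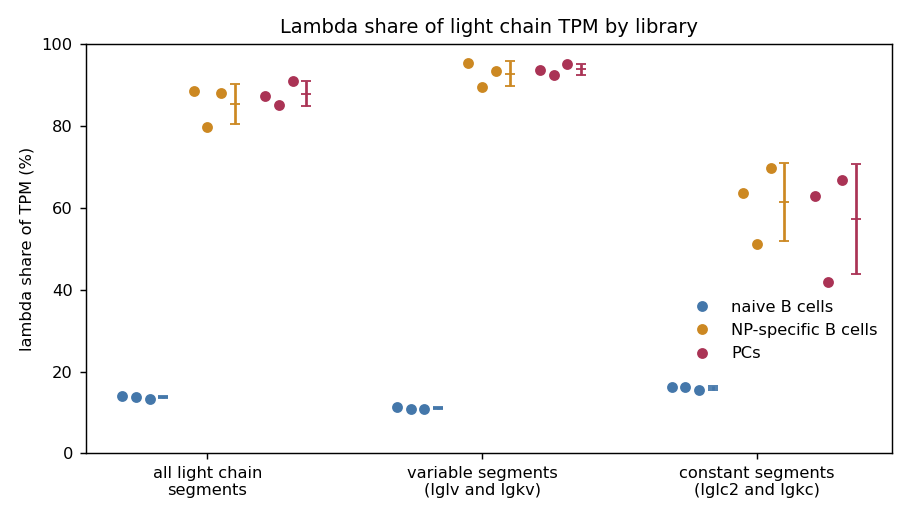
Lambda share of TPM (%) by library for all light chain segments, variable segments and constant segments (Iglc2 and Igkc alone), as points, with mean and SD (bars) beside them. The naive libraries lie between 10.8 and 16.2% in every definition, and the constant segments give the lowest and most spread shares in both NP-binding groups.

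Light chain segments together held 4.20, 4.34 and 4.20% of listed TPM in naive cells, 5.44, 4.84 and 4.25% in NP-binding cells and 39.5, 42.0 and 37.9% in PCs. The first 2 groups overlapped (exact permutation p = 0.2). PCs lay above both (exact permutation p = 0.1, the smallest possible). As estimated reads, the same share was 0.779 to 0.842% in naive cells, 0.706 to 0.856% in NP-binding cells and 9.54 to 10.8% in PCs. The light chain and the other Ig genes together took a share of PC TPM that lowers the TPM of everything else. The median log2 change of all 12324 genes tested was -1.40 from naive cells to PCs and -1.27 from NP-binding cells to PCs. When TPM was scaled to genes outside the Ig genes instead, these medians were -0.18 and -0.06. The 2 scales are called the listed scale and the non-Ig scale below. TPM values are given as listed, before either scaling. The listed sum had a mean of 937295 in naive cells, 909190 in NP-binding cells and 684987 in PCs. Log2 changes in PCs thus differ from ratios of the printed TPM.

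Igkv segments fell in NP-binding cells relative to naive cells. Of 103 Igkv segments, 78 passed the filter on low values (3 or more libraries with 1 TPM or more). A member was called with a limma adjusted p under 0.05 and a fold over 2. Of the 83 light chain segments tested, 45 were called lower and 2 higher, against a background of 11.6% lower, 8.67% higher and 20.2% in either direction among all genes. On the non-Ig scale 44 were lower and 2 higher, against 11.4%, 8.77% and 20.1%. The 45 were Igkc and 44 Igkv segments, the 2 were Iglv1 and Iglv2, and 0 Igkv segments were called higher. Of the 83 members, 19 Igkv segments passed the filter only with the naive libraries, where they were high, so a fall was built into their passing. They made up 14 of the 45 members called lower, and 31 of the other 64 were called lower. Over the 59 Igkv segments among those 64 the median log2 change was -3.73, against -0.16 over all genes. Segments under the filter were low in each group and are not part of these counts.

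The falls of Igkv segments in NP-binding cells reached the level of single TPM. Igkv12-46 went from 528, 605 and 632 TPM in naive cells to 2.11, 16.5 and 5.48 (log2 change -6.47 ± 0.59, limma adjusted p = 3.12e-05). Igkv16-104 went from 349.9, 392 and 333 TPM to 17.7, 0.426 and 3.48 (log2 change -6.42 ± 0.66, limma adjusted p = 6.15e-05). Igkv6-32 went from 311, 292 and 315 TPM to 1.13, 2.11 and 4.80 (limma adjusted p = 0.0134), and Igkv4-68 from 183, 184 and 168 TPM to 0.284, 5.74 and 2.09 (limma adjusted p = 0.0256). The call of Igkv4-68 was lost without any NP-binding cell library in turn (limma adjusted p 0.0615 to 0.0714). In these 4 segments the libraries of the groups were apart. Igkv4-79, which passed the filter only with the naive libraries, is given as a description, at 42.0, 52.9 and 51.3 TPM in naive cells and 0 in all 3 NP-binding cell libraries (at least 64.8-fold lower against the floor of 3 estimated reads).

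Some abundant Igkv segments were not called, and their NP-binding cell libraries differed widely. Igkv9-120 held 524, 494 and 504 TPM in naive cells and 145, 330.2 and 445 TPM in NP-binding cells, where it was the sole Igkv segment over 100 TPM in every library. Igkv4-91 held 205, 213 and 206 TPM in naive cells and 1.71, 779.9 and 6.72 TPM in NP-binding cells. Igkv4-69 held 49.2, 32.8 and 46.6 TPM in naive cells and 267, 35.3 and 0 TPM in NP-binding cells. Each of the last pair was high in 1 NP-binding cell library and low in another.

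Relative to naive cells, PCs had 27 of the 83 members called lower and 6 called higher on the listed scale, where the background was 64.5% lower, 4.47% higher and 68.9% in either direction. The 27 were all Igkv segments, and 12 of them were among the 19 that passed the filter only with the naive libraries. The 6 were Iglv1, Iglv2, Iglv3, Iglc2, Igkv4-92 and Igkv14-126. On the non-Ig scale 14 were lower (8 of them among those 19) and 8 were higher, against 18.4%, 13.1% and, in either direction, 31.4% of all genes, and Igkc and Igkv16-104 were among the higher ones. Leaving out PC replicate 1, 2 or 3 gave 20, 14 and 14 lower and 15, 12 and 13 higher on this scale, against 17.3 to 18.6% lower and 12.3 to 12.5% higher among all genes. The share of members called higher was thus below the background with all libraries (9.64%) and above it without any 1 PC library (14.5 to 18.1%). With size factors from the median of ratios, 11 were lower (13.3%) and 12 higher (14.5%), against 9.53% lower and 23.2% higher among all genes, whose median was 0.33. Without PC replicate 3, 26 were lower (31.7%) and 10 higher (12.2%) on the listed scale, against 64.9% and 4.16% of all genes. Without the 19 segments, the median log2 change of the other 59 Igkv segments was -1.90 on the listed scale, -0.67 on the non-Ig scale and -0.09 with the median of ratios, against the medians of all genes given above. Over all 83 members it was -1.94, -0.70 and -0.16. On the non-Ig scale the median of the members was -1.34, -0.52 and -0.53 without PC replicate 1, 2 or 3. With a replicate block on that scale it was 0.02, and 0.17 over the 59 Igkv segments, so its sign depended on the block.

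The Igkv segments lower in PCs included Igkv12-46, at 0, 6.24 and 2.49 TPM (log2 change from naive cells -7.63 ± 0.76 on the listed scale and -6.43 ± 0.76 on the non-Ig scale, limma adjusted p = 6.46e-05). Igkv4-55 went from 219, 209 and 186 TPM in naive cells to 0.764, 0.485 and 9.78 TPM in PCs (log2 change -6.01 ± 0.60 on the listed scale and -4.76 ± 0.59 on the non-Ig scale, limma adjusted p = 8.66e-05). Igkv4-80 went from 60.9, 71.7 and 51.7 TPM to 0.164, 0.318 and 0.170 TPM (log2 change -5.97 ± 0.28 on the listed scale and -4.75 ± 0.28 on the non-Ig scale, limma adjusted p = 5.26e-07). Igkv4-79 was at 0 in the first 2 PC libraries and at 0.314 TPM in replicate 3. These values too are a description. The other 3 were called lower on both scales, and their PC libraries all lay below the naive ones. Igkv4-57-1, a segment that likewise passed only with the naive libraries, was at 77.6 to 90.7 TPM in naive cells and at most 0.442 TPM in PCs, also as a description.

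Igkv4-92 was higher in PCs than in naive cells, at 189, 107 and 2517 TPM against 42.2, 39.6 and 50.9 TPM (log2 change 3.51 ± 1.19 on the listed scale, limma adjusted p = 0.0195, and 4.75 ± 1.20 on the non-Ig scale). Replicate 3 was far above the other PC libraries, but all 3 lay above the naive ones. Without that library the log2 change was 2.12 on the listed scale, and the call was lost on estimated reads (limma adjusted p = 0.0817). Igkv14-126 was at 510.4, 232 and 164 TPM against 73.3, 63.9 and 65.8 TPM (log2 change 2.44 ± 1.02 on the listed scale, limma adjusted p = 0.0476, and 3.66 ± 1.00 on the non-Ig scale). Its listed-scale call was lost without PC replicate 1 (log2 change 1.98) or replicate 2 (log2 change 2.56), and without any 1 naive library.

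PCs had 16 members called higher than NP-binding cells and 2 called lower on the listed scale, against a background of 3.41% higher, 59.7% lower and 63.1% in either direction. The 16 were the constant segments Igkc and Iglc2, the 3 Iglv segments and 11 Igkv segments. On the non-Ig scale 28 were higher and 1 was lower, against 14.4%, 16.1% and, in either direction, 30.5% of all genes. Without PC replicate 3, 25 were higher and 4 lower on the listed scale. Without PC replicate 2 the counts were 26 and 2, and without PC replicate 1 they were 22 and 4. In these fits with 1 PC library left out, 26.5 to 31.3% of members were higher, against 3.11 to 3.3% of all genes. In either direction 31.3 to 35.4% of members were called, against 61.2 to 63.2% of all genes. The median log2 change of the 78 Igkv segments was 1.19 on the listed scale and 2.31 on the non-Ig scale. It was 1.54 and 2.72 without the 19 that passed the filter only with the naive libraries. Igkv8-19 was kept although, like Igkv4-61 among the 19, it passed the filter only with the PC libraries.

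Several Igkv segments that rose from NP-binding cells to PCs were present in all 3 PC libraries. Igkv16-104 was at 233, 233 and 309 TPM in PCs and at most 17.7 TPM in NP-binding cells (log2 change 6.39 ± 0.66 on the listed scale and 7.61 ± 0.65 on the non-Ig scale, listed-scale limma adjusted p = 1.09e-05). Igkv1-117 was at 565, 846 and 554 TPM in PCs against 2.72, 54.4 and 54.4 TPM (log2 change 5.32 ± 0.77 on the listed scale and 6.52 ± 0.76 on the non-Ig scale, listed-scale limma adjusted p = 1.22e-04), although 62.6% of its 31-base words occur in Igkv1-110. Igkv8-30 was at 64.2, 236 and 300.1 TPM against 0.231, 24.3 and 10.7 TPM (log2 change 5.22 ± 1.06 on the listed scale and 6.43 ± 1.06 on the non-Ig scale, listed-scale limma adjusted p = 0.00115). Igkv6-17 was at 453, 639.8 and 159.8 TPM in PCs against 10.7, 53.0 and 167 TPM (log2 change 3.36 ± 0.80 on the listed scale and 4.56 ± 0.81 on the non-Ig scale, listed-scale limma adjusted p = 0.00312), so that its groups overlapped. In Igkv16-104 and Igkv1-117 every PC library was more than 10 times above the highest NP-binding cell library.

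Igkv4-80 and Igkv9-123 were the members lower in PCs than in NP-binding cells. Igkv4-80 was at 5.74, 5.73 and 4.27 TPM in NP-binding cells and at 0.318 TPM or less in PCs (log2 change -2.59 ± 0.31 on the listed scale and -1.38 ± 0.31 on the non-Ig scale). Igkv9-123 was at 12.0, 3.86 and 6.36 TPM in NP-binding cells and at 0.691, 0 and 0.825 TPM in PCs, and its call was lost on the non-Ig scale (limma adjusted p = 0.0627). Both were low in each group compared with the leading Igkv segments.

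Which Igkv segments led differed from library to library in the NP-binding groups but not in naive cells. Igkv6-15 led in each naive library, with 9.38, 9.80 and 8.97% of Igkv TPM. In NP-binding cells the leaders were Igkv4-69 with 15.0%, Igkv4-91 with 22.4% and Igkv9-120 with 22.4%. In PCs they were Igkv4-70 with 11.1%, Igkv1-135 with 21.9% and Igkv4-92 with 24.1%. No segment led more than 1 library in these groups. In PC replicate 2, Igkv1-135 (4108 TPM), Igkv1-110 (4062 TPM) and the pseudogene Igkv12-47 (2361 TPM) made up over 50% of Igkv TPM. In the other PC libraries Igkv1-110 was at 4.16 and 374 TPM and Igkv12-47 at 5.12 and 0 TPM. Igkv12-46, the relative of Igkv12-47 shown above, was at 6.24 TPM in that same library and at 0 and 2.49 TPM in the others, and in naive cells it was the higher of the pair (528 to 632 against 269 to 281 TPM).

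**Figure D3:**
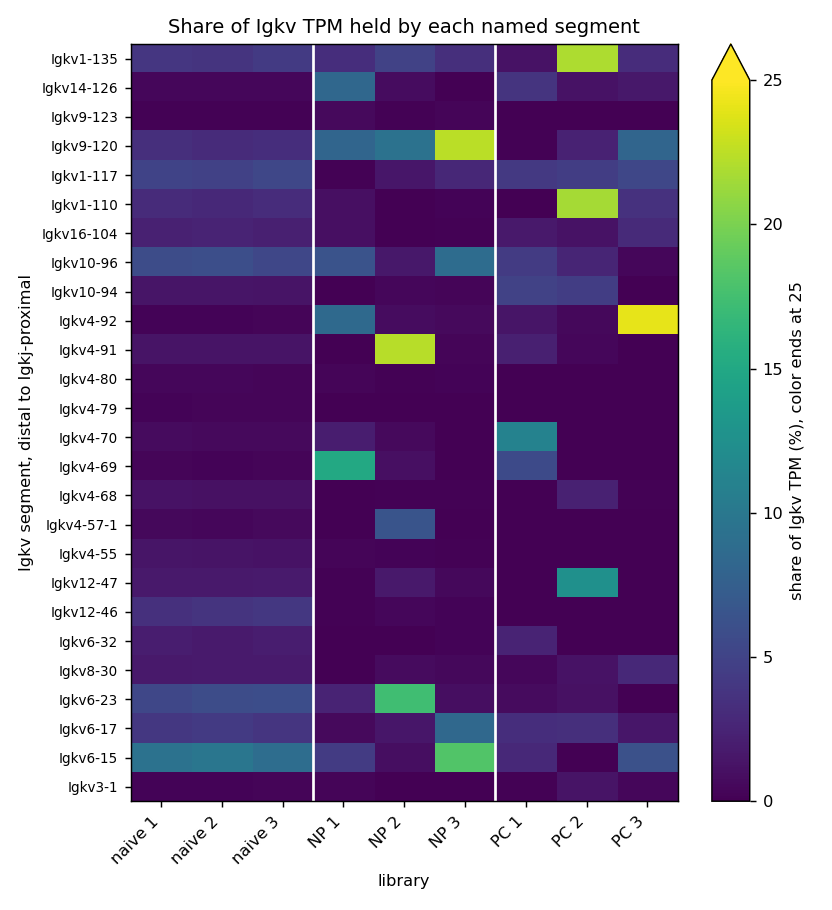
Share of Igkv TPM (%, color) of the 26 named Igkv segments in each library, in order of position from the far end of the locus to the segments nearest Igkj. The naive columns look alike, whereas each NP-binding cell and PC library has its own bright segments, such as Igkv4-92 with 24.1% in PC replicate 3.

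The spread of single segments differed to match. Among 64 Igkv segments with a mean of at least 10 TPM, the median coefficient of variation was 8.67% over the naive libraries, 100% over the NP-binding cell libraries and 121% over the PC libraries. In naive cells, 36 segments exceeded 100 TPM in all 3 libraries and 0 in just 1 library. In NP-binding cells 1 did so in all 3 and 14 in just 1, and in PCs 7 in all 3 and 20 in just 1. The 7 in PCs were Igkv1-117, Igkv16-104, Igkv1-135, Igkv14-126, Igkv6-17, Igkv8-24 (named here after its values were seen) and Igkv4-92, with lowest values of 107 TPM (Igkv4-92) to 554 TPM (Igkv1-117).

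Fewer Igkv segments carried the kappa transcripts of the NP-binding groups. The effective number of Igkv segments (the exponential of the Shannon entropy of their TPM shares, equal to the count of segments if all were alike) was 41.1, 40.5 and 40.4 in naive cells. It was 25.5, 17.5 and 16.4 in NP-binding cells and 28.6, 13.9 and 17.8 in PCs. Both groups lay below every naive library (exact permutation p = 0.1 for each, the smallest possible), and their own ranges overlapped (exact permutation p = 0.9). The 10 leading segments held 47.1% ± 0.521 (SD, n = 3) of Igkv TPM in naive cells, 74.8% ± 5.69 in NP-binding cells and 69.4% ± 13.7 in PCs. Reaching 50% of Igkv TPM took 11 to 12 segments in naive libraries, 4 to 6 in NP-binding cells and 3 to 9 in PCs. The summed Igkv level was 15365 to 16021 TPM in naive cells, 1773 to 3488 in NP-binding cells and 10461 to 18772 in PCs. The number of cells sorted into each library is not given in the sources used here, and its part in these breadths was not tested.

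**Figure D4:**
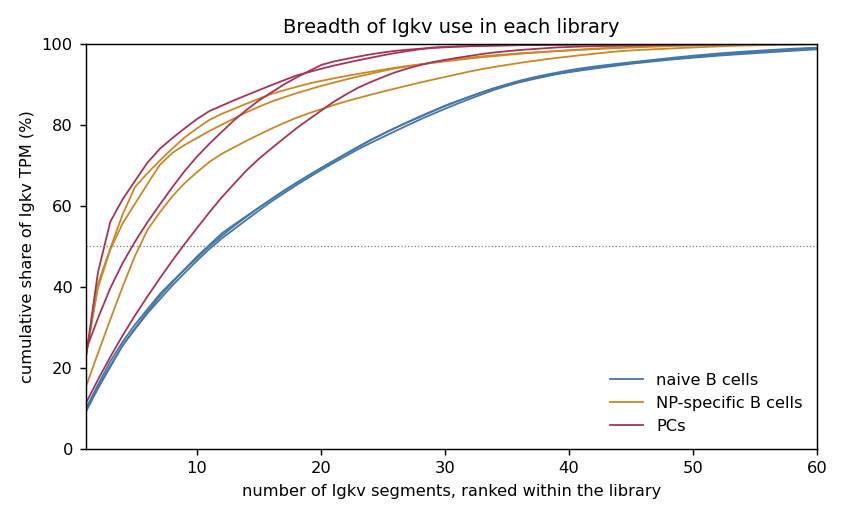
Cumulative share of Igkv TPM (%) against the number of Igkv segments, ranked within each library (1 line per library, dotted line at 50%). The 3 naive lines lie on each other and below all others at every rank, and the PC line nearest to them is that of replicate 1.

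Pairs of libraries were compared by the Bray-Curtis dissimilarity of their Igkv shares (0% for the same shares, 100% for no segment in common). It was 4.08 to 5.25% among naive libraries, 61.2 to 67.8% among NP-binding cell libraries and 72.5 to 74.8% among PC libraries. Naive and NP-binding cell libraries differed by 51.3 to 58.6%, and naive and PC libraries by 51.9 to 61.0%. Libraries of NP-binding cells and of PCs were each less like one another than they were like the naive libraries.

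**Figure D5:**
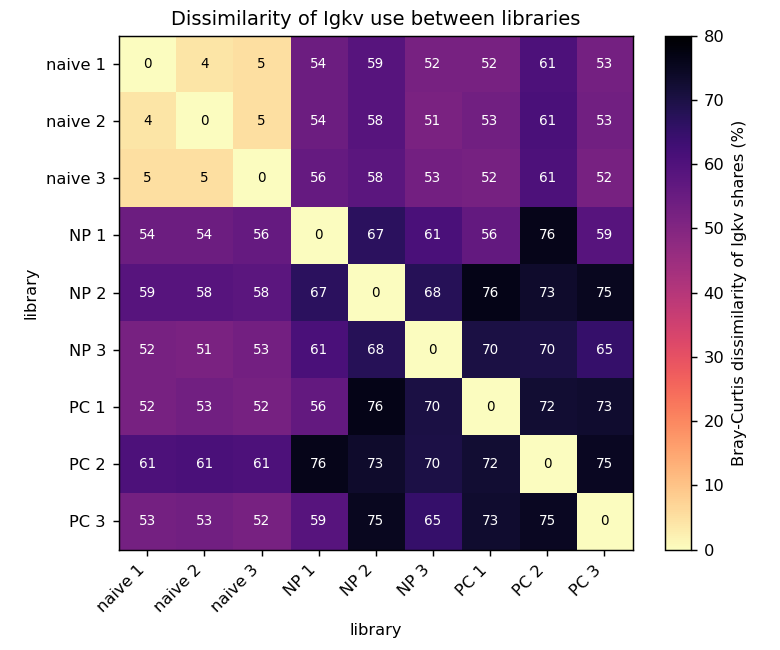
Bray-Curtis dissimilarity (%, color and printed value) of Igkv shares for every pair of the 9 libraries. The block of naive libraries is at 4 to 5%, and the pairs within NP-binding cells (61.2 to 67.8%) and within PCs (72.5 to 74.8%) exceed those with naive libraries (51.3 to 61.0%).

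By family, Igkv6 led in naive cells with 24.8 to 26.3% of Igkv TPM from 9 segments. By group mean it was followed by Igkv4 with 13.3 to 13.9% from 26 segments and Igkv1 with 12.3 to 13.7% from 11 segments. In naive replicate 3 Igkv1 (13.7%) was above Igkv4 (13.4%). Igkv4 held 30.7, 35.6 and 6.11% in NP-binding cells and 33.8, 5.68 and 27.2% in PCs. Igkv1 held 53.6% in PC replicate 2 and 8.24 and 12.1% in the other PC libraries. Igkv9 reached 22.9% in NP-binding cell replicate 3, nearly all from Igkv9-120. No family had all libraries of both NP-binding groups above the naive ones.

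By position, the 103 segments were cut by coordinate into 35 at the far end from Igkj, 34 in the middle and 34 nearest to Igkj. The far group held 33.2 to 34.7% of Igkv TPM in naive cells, 42.8 to 51.6% in NP-binding cells and 36.5 to 69.4% in PCs. The group nearest to Igkj held 39.1 to 41.0%, 29.3 to 35.8% and 10.6 to 32.4%. Every NP-binding library thus lay above the naive ones for the far segments and below them for the near segments, as a description with no test. Segments on the plus strand, which join Igkj by deletion, held 37.7 to 39.4% in naive cells, 24.1 to 54.5% in NP-binding cells and 40.0 to 66.6% in PCs, with overlap between NP-binding cells and naive cells. The 7 Igkv pseudogenes held 2.34 to 2.40% in naive cells, 0.320 to 2.97% in NP-binding cells and 2.37, 12.6 and 0.287% in PCs.

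All 5 Igkj segments were listed at a TPM of 0 in all 9 libraries. They are shown because no transcript of a rearranged kappa gene can be made without one of them. They lie on the plus strand of chromosome 6 between 70722562 and 70723923, are 38 or 39 bases long in their coding part, and capitals mark bases that differ from Igkj1.
Igkj1: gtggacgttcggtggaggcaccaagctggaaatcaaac
Igkj2: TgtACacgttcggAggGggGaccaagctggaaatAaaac
Igkj3: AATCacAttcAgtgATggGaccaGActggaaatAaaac
Igkj4: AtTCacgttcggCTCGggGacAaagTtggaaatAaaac
Igkj5: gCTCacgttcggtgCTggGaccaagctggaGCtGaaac
Their transcripts are 36 to 43 bases long in the annotation and hold 8 to 13 words of 31 bases. Igkc stood at 2682 TPM or more in every library beside these zeros, and no use of Igkj segments was read from them. Of the 103 Igkv segments, 6 were at 0 in all 9 libraries (Igkv17-127, Igkv2-95-2, Igkv5-39, Igkv6-29, Igkv7-33 and Igkv8-16) and 38 were above 0 in all 9. In all, 42 of the 113 members were above 0 in every library and 11 at 0 in every library.

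A list of 28 genes that act around light chains was read beside them: surrogate light chain and recombination genes, partners of the assembled antibody and transcription factors of the light chain loci. Of these, 22 passed the filter, and 3 were called between naive and NP-binding cells, with Igj higher and Irf4 and Rel lower (4.55% and 9.09%, against 8.67% and 11.6% of all genes). Set against naive cells, PCs had 3 higher (13.6%) and 16 lower (72.7%) on the listed scale, against 4.47% and 64.5% of all genes. Without PC replicate 3 the counts were 4 and 15, against 4.16% and 64.9%. On the non-Ig scale PCs had 5 (22.7%) and 13 (59.1%), against 13.1% and 18.4%. Without that library the counts were the same, against 12.5% and 17.3%. Set against NP-binding cells, they had 4 higher (18.2%) and 15 lower (68.2%) on the listed scale, against 3.41% and 59.7%. Without PC replicate 3 the counts were 4 and 15, against 3.16% of all genes higher and 63.2% in either direction. On the non-Ig scale PCs had 6 (27.3%) and 13 (59.1%), against 14.4% and 16.1%. Without that library the counts were 7 and 13, against 13.0% and 15.2%. The median log2 change of the list on the non-Ig scale was -1.73 in PCs against naive cells and -1.26 in PCs against NP-binding cells, below the -0.18 and -0.06 of all genes.

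Among partners of the antibody, Igj, the chain that joins IgM and IgA units, rose from 3.03 ± 1.73 TPM (SD, n = 3) in naive cells to 370.0 ± 96.0 in NP-binding cells and 15717 ± 1318 in PCs. The ER chaperone Hspa5 (BiP), which binds unassembled antibody chains, was at 479 ± 34.8, 524 ± 53.2 and 1361 ± 97.6 TPM and rose in PCs over both other groups. Hsp90b1 (GRP94), a further chaperone of antibody chains, was at 210.2 ± 32.7, 362 ± 45.8 and 2637 ± 233 TPM and rose likewise. The B cell receptor signalling chain Cd79a fell in PCs, from 3320 ± 151 TPM in naive cells and 2032 in NP-binding cells to 142 ± 12.7. Vpreb3, related to the surrogate light chain, fell in PCs to 36.3 ± 6.97 TPM from 398 ± 68.3 and 294 ± 4.37. Each of these changes in PCs was called on both scales.

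Of the factors that bind light chain enhancers, Irf4 was lower in NP-binding cells than in naive cells (9.97 ± 3.27 against 23.5 ± 2.82 TPM, limma adjusted p = 0.00221), a fall under 2-fold without NP-binding cell replicate 1 (log2 change -0.92) and with the median of ratios (-0.94). In PCs it was at 32.7 ± 5.42 TPM and higher than in NP-binding cells (log2 change 2.11 ± 0.22 on the listed scale and 3.32 ± 0.24 on the non-Ig scale). The Ets factors Spi1 (PU.1) and Spib, with which Irf4 binds these enhancers, fell in PCs to 15.8 ± 1.18 and 0.337 ± 0.0705 TPM, from means of 184 and 372 TPM in naive cells. Irf8, the paralogue of Irf4, fell to 4.66 ± 2.02 TPM from a mean of 448. These 3 falls were called on both scales. Pax5 fell to 0.204 ± 0.146 TPM from 76.7 ± 7.62. Rel, an NF-kB subunit, was lower in NP-binding cells than in naive cells (log2 change -1.25 ± 0.14, limma adjusted p = 1.03e-04). In PCs it was lower still, at 0.938 ± 0.0734 TPM. With the median of ratios its change in NP-binding cells was -0.98, under the 2-fold limit. Pou2f1 was called lower in PCs than in naive cells on the listed scale (log2 change -1.08 ± 0.19), but the change was 0.14 on the non-Ig scale. The recombination genes Rag1, Rag2 and Dntt and the surrogate light chain genes Vpreb1, Vpreb2 and Igll1 had group means of at most 1.25 TPM and did not pass the filter.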

How the data were processed

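RNA-seq was measured in 9 libraries, 3 each of naive B cells, NP-specific B cells and PCs. The submitters' processing notes name kallisto, limma and the mm10 build. The authors pseudoaligned reads with kallisto and deposited TPM with and without Ig genes. They also deposited log2 values, made by voom from estimated reads per library with an offset of 0.5. Undoing that transform gave the estimated reads (28958700 to 39341500 a library). The light chain members were read from the full TPM table, matched to GENCODE vM21 for position and sequence (113 of 113).

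Genes with 1 TPM or more in 3 or more libraries were tested on voom-transformed TPM (log2 scale, offset 0.5, scaled to the sum of listed TPM) with limma 3.58.1 in R 4.3.3, in a single fit over all 3 groups, with Benjamini-Hochberg adjustment over 12324 genes, and called at an adjusted p under 0.05 and a fold over 2. Shares and breadth were compared by two-sided exact permutation tests over libraries. Python 3.11.15, NumPy 2.4.6 and pandas 2.3.3 were used for the rest. The fit was tested on simulated data. The members and lists were chosen with earlier results of these data known. Named were the constant, joining and Iglv segments, the 8 Igkv segments with the highest mean share in each group, up to 5 called Igkv segments with the largest rise and fall in each comparison, and called companions with a mean of 10 TPM or more in any group. Alternatives were another scaling, another pseudocount, other filters, estimated reads, the authors' log2 values, a replicate block and leaving out each library. Since it is not stated which libraries share a mouse, p-values measure the spread between these libraries.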

Additional observations from a re-analysis of the deposited data

How the results depend on the processing

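Iglv1 and Iglv2 kept their calls in all 3 comparisons under every alternative in which they were tested. Igkc, not called between PCs and naive B cells, was called there on estimated reads (log2 change 1.22) and with the median of ratios (2.17), and Iglc2 was called from naive to NP-specific B cells with the latter (1.11). PCs against NP-specific B cells gave 18 called members (21.7%, against 63.1% of all genes), 29 with TPM scaled to genes outside the Ig genes (34.9%, against 30.5%) and 35 with size factors from the median of ratios (42.2%, against 32.4%). Leaving out 1 library at a time gave 17 to 37 over both scales. On the scale of genes outside the Ig genes it was 30 without PC replicate 1, 32 without replicate 2 and 37 without replicate 3 (36.1 to 45.1%, against 28.2 to 30.2%). Between PCs and naive B cells the authors' log2 values gave 21 called members (25.3%, against 52.6% of all genes) in place of 33 (39.8%, against 68.9%). Libraries with the same number were weakly alike (correlations of 0.0143 to 0.117 over 12324 genes), which did not meet the limit for pairing, although each correlated best with its own number in 4, 6 and 6 of 6 libraries in the 3 comparisons. With a replicate block the count between PCs and NP-specific B cells was 30 (36.1%, against 63.6% of all genes), and 49 with the block and the scaling to genes outside the Ig genes (59.0%, against 31.5%), while the other counts stayed within 1.5 times. With the block and that scaling the median log2 change of the members from naive B cells to PCs was 0.02, in place of -0.70 without the block, and 0.50 in place of -0.55 without the 19 segments that passed the filter only with the naive libraries. The smallest p that pairs of 3 allow for the light chain measures is 0.25.

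The lambda share rose over naive B cells on estimated reads by 65.0 percentage points in the NP-specific B cells and 67.1 in the PCs, by 81.8 and 82.8 over variable segments and by 45.5 and 41.3 over constant segments. The light chain share of all estimated reads differed from that of the naive libraries by -0.0115 percentage points in the NP-specific libraries and by 9.43 in the PC libraries, which were 9.44 apart. On estimated reads the mean naive share of the far segments was 36.3% and of the near segments 37.8%, against 34.0 and 40.1% of TPM. The separation of single libraries by position was read on TPM only. In the lambda share and the breadth measures PCs did not differ from the NP-specific B cells in a steady direction. Their light chain share of listed TPM was higher by 33.8 to 35.9 percentage points with 1 library left out. Genes outside the table held 30.0 to 32.8% of TPM in PCs and 8.70 to 9.71% in the NP-specific B cells. The lambda share differed by -4.27 over constant segments and by -0.374 to 3.99 with 1 library left out (below 0 without NP-specific B cell replicate 2). Over variable segments it was -0.607 to 2.37 and over constant segments -9.48 to 3.38. The effective number differed by -0.884 on estimated reads and by -3.99 to 3.4 with 1 library left out, the top share by 1.20 and by -3.44 to 3.03, and the top 10 share by -11.4 to 2.06. Among single genes, the log2 change of Iglv3 from naive to NP-specific B cells was -0.81 to 0.15 with 1 library left out, above 0 without NP-specific replicate 3. In PCs against naive B cells, Ikzf3 changed by 0.10 with the median of ratios. Pou2f1 changed by 0.65 with it, by 0.14 with TPM scaled to genes outside the Ig genes and 0.16 with the block added, and by 0.015 and 0.41 on that scale without PC replicate 1 and 3. The causes were not tested.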

Other observations

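Between the NP-binding groups, the PC library with Igkv shares nearest to each NP-specific B cell library was the one with the same number, in 3 of 3 cases, at a Bray-Curtis dissimilarity of 56.2% (replicate 1), 73.4% (replicate 2) and 64.9% (replicate 3). Seen from the PC libraries, the nearest NP-specific B cell library had the same number in 1 of 3 cases. These are values without a test, and whether a number marks a mouse is not stated. Family Igkv13, with 2 segments, was below the naive libraries (1.74 to 2.12% of Igkv TPM) in each NP-specific B cell library (0.350 to 1.19%) and each PC library (0.0041 to 0.625%).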
